A study of Rattus norvegicus with 25 samples.

Results

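Matrix metalloproteinases (MMPs) and ADAMTS enzymes are zinc-dependent proteases that cut collagens, proteoglycans and glycoproteins of the extracellular matrix, and the tissue inhibitors of metalloproteinases (TIMPs) bind to their active site and block them. Most MMPs are made as inactive proenzymes that must be cleaved before they work, and the ADAMTS-like proteins have the matrix-binding repeats of ADAMTS enzymes but no protease domain. In the periodontium these proteases are known for their part in collagen turnover and in the breakdown of gingival and periodontal ligament fibres. All genes whose symbol begins with Mmp or Timp and a digit, or with Adamts, were taken from the table of 30547 genes, with the transcripts of a gene summed. This gave 49 members, namely 22 Mmp, 19 Adamts, 4 Adamtsl and 4 Timp genes, and reads were found for 49 of them.

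The samples were gingiva of wild type Sprague-Dawley rats, aged 6 weeks according to the labels (another age stands in the methods of the study), with 5 rats in each of 5 groups and 1 library per rat. Experimental periodontitis (EP) was induced in the EP group and in the groups that received a gel, with silk ligatures around the maxillary first molars on both sides and with the periodontal pathogen P. gingivalis smeared on the silk. Sham rats were given hydrogel as a control, and the sources used here do not say if the EP group was given a blank gel. Curcumin (Cur gel), zinc oxide nanoparticles (ZNP gel) or both (Cur/ZNP gel) were delivered in hydrogel into the periodontal pocket, 200 μL at a time, weekly for 4 weeks. The combined gel held each agent at a lower concentration than the single gels. The comparison of EP with sham addresses the effect of the disease, together with any difference in gel vehicle. Gel groups compared with EP address treatment, alone or combined, with the same limit. Gel groups compared with sham hold disease and treatment together.

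Reads per library ranged from 50690789 to 81791804, of which the members held 0.0401% to 0.192%. A normalized count is the number of reads of a gene divided by the size factor of its library. The libraries Sham 4, EP 3 and EP 4 stood apart, since markers of nasal glands summed to as much as 2.73e+07 normalized counts in sham and 2.13e+07 in EP against at most 60891.5 in any gel library. Salivary gland markers were not confined to these libraries, at 132109 in Sham 4, 4.27e+06 in EP 3 and 32995 in EP 4. Their sums ranged from 2293 to 2.26e+06 in sham and from 32995 to 9.1e+06 in EP. In Cur gel they ranged from 3.21e+06 to 8.42e+06, in ZNP gel from 168189 to 5.83e+06 and in Cur/ZNP gel from 2594 to 5.13e+06. All 8 keratinocyte markers were present in each group, with sums of 154708 to 1884840 in sham and 344961 to 1470930 in EP. Between EP and sham, 5 of 6 tested skeletal muscle markers were higher (sums of 340147 to 1800850 in EP and 20886 to 364939 in sham). Over the same groups, 8 of 9 tested autonomic neuron markers were lower (194 to 406 in EP and 635 to 147381 in sham). Of all genes tested, 18.8% were called higher and 18.8% lower. The part of these tissues in the results on the proteases was not tested, and in bulk tissue a smaller number of cells of a type cannot be told apart from less RNA per cell.

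Of the members, 10 lie side by side on chromosome 8 (Rnor_6.0), namely Mmp13, Mmp12, Mmp1b, Mmp3, Mmp1, Mmp10, Mmp8, Mmp27, Mmp20 and Mmp7. Promoters of 36 members, each with a single entry, were read from RefSeq (build GRCr8) as windows of 300 bases from 250 bases before the transcription start. TGANTCA is a looser form of the core of the AP-1 site, since N was any base and the core has C or G there. It was found on either strand in 7 of the 10 promoters of the cluster and in 7 of all 36, so that no promoter read outside the cluster held it. Members without a single entry, among them Mmp2, Mmp9 and Mmp14, were not read. Of all 33469 promoters, 7.33% held TGANTCA. The TATA box letters TATAAA, on either strand, stood in 8 of the 10 and in 14.2% of all promoters, and the GC box letters GGGCGG, on either strand, in 0 of the 10 and in 33.1% of all promoters. The first 250 bases are printed for Mmp3 and Mmp10, which varied together between rats, and for Mmp27, which varied with Mmp3 and holds none of the motifs. They are also printed for Mmp13, the cluster member lower in all gel groups than in sham, and for Timp3, an inhibitor whose promoter holds GGGCGG at 3 places. Capitals mark matches to the AP-1, TATA box and GC box letters on either strand, overlapping matches included. The sequences run 5′ to 3′ toward the start site.
Mmp3, chr8:12925031-12925280, plus strand: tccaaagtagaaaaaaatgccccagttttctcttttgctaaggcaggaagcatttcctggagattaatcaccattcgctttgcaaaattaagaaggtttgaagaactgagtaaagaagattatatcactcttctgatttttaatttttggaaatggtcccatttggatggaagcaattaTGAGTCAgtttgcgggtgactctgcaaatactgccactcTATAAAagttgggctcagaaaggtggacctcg
Mmp10, chr8:12974457-12974706, plus strand: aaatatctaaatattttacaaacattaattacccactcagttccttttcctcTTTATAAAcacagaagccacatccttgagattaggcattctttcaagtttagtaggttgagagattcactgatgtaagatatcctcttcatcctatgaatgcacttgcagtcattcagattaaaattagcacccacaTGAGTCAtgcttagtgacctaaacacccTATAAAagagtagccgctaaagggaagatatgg
Mmp27, chr8:13030502-13030751, plus strand: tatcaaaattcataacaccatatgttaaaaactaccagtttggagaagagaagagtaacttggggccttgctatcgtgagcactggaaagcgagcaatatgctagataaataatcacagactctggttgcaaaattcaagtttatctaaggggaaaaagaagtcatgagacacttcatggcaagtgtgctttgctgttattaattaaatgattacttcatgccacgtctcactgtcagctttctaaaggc
Mmp13, chr8:12782579-12782828, plus strand: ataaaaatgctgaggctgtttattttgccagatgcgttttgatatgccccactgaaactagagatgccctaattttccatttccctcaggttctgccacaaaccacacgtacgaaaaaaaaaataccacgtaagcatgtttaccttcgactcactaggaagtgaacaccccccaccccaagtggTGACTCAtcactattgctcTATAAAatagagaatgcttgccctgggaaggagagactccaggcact
Timp3, chr7:19459559-19459808, minus strand: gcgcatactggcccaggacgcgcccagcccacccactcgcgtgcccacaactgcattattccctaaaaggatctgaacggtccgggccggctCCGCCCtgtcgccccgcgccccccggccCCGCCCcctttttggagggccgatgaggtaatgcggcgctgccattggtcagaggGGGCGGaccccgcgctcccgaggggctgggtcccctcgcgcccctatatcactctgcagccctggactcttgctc
In Mmp3, Mmp10 and Mmp13 the TGANTCA match begins 71, 61 and 66 bases before the start site, each followed by a TATAAA match. Over the 10 cluster promoters CG pairs numbered 1 to 7 with a median of 4. The 10 promoters found among the 13 members that were higher in EP than in sham had a median of 26 and held TGANTCA in 0 and GGGCGG in 6. Over all 36 members read, the median was 15 CG pairs and GGGCGG stood in 18. GGGCGG was thus not particular to the members higher in EP. The median over all promoters, which were not limited to genes with a single entry, was 7 CG pairs. A match of letters is a description of the window and not a site shown to be bound.

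Timp2, Timp3 and a set of Adamts and Adamtsl genes were higher in EP gingiva than in sham, whereas of the MMPs Mmp19 passed. Of 43 members tested with limma, 13 were higher and 2 lower in EP at an adjusted p under 0.05, which is 34.9% called, beside 37.6% of all 16092 genes tested. The higher calls made up 30.2% of the members and 18.8% of all genes, and the lower calls 4.65% and 18.8%. The median log2 difference was 0.43 over the members and 0.01 over all genes. By family, 2 of 4 Timp, 7 of 17 Adamts, 3 of 4 Adamtsl and 1 of 18 Mmp genes rose, and 1 Adamts and 1 Adamtsl gene fell. In none of the 43 members did the 5 EP rats lie wholly above or wholly below the 5 sham rats, while 8.07% of all genes lay wholly above and 8.47% wholly below.

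**Figure D1:**
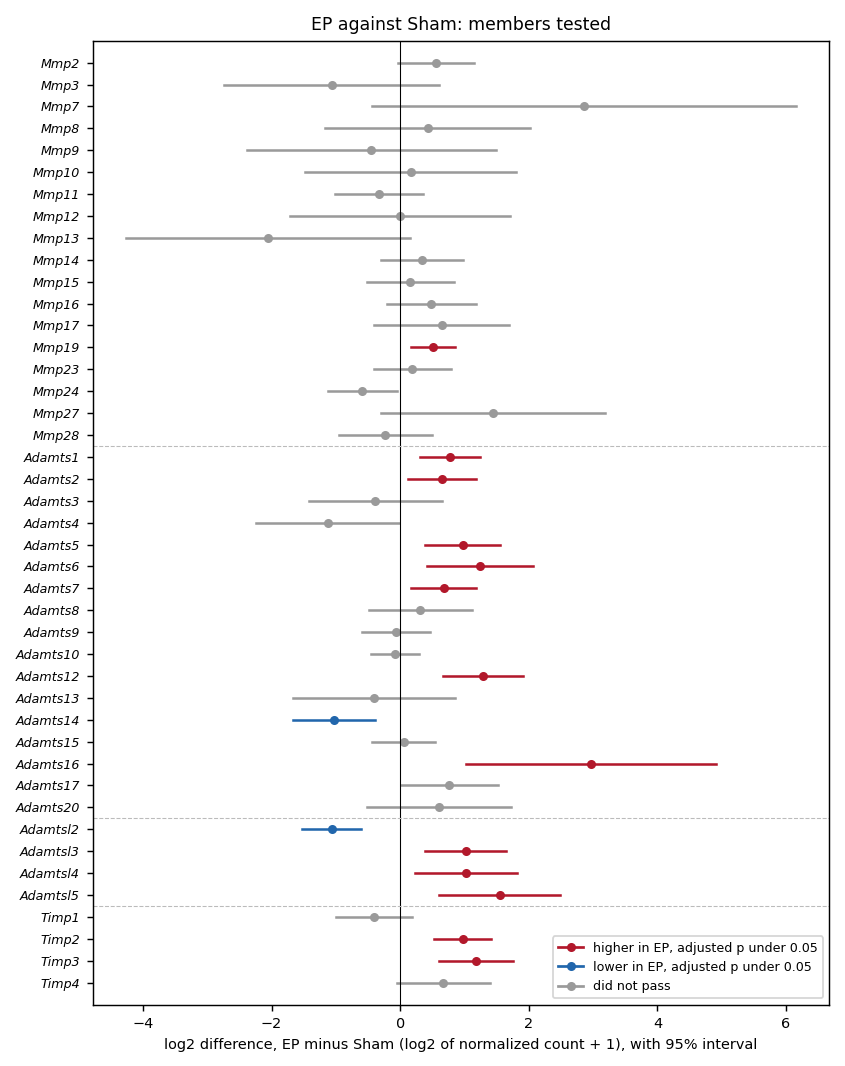
Log2 difference between EP and sham for the 43 members tested, with 95% intervals from limma, ordered by family and number (dashed lines part Mmp, Adamts, Adamtsl and Timp genes). The 13 higher members (red) include 7 Adamts, 3 Adamtsl, 2 Timp and 1 Mmp gene, and the 2 lower ones (blue) are Adamts14 and Adamtsl2.

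Among the inhibitors, Timp2, which blocks MMPs broadly and also takes part in the activation of pro-MMP2 by MMP14, measured 4107, 10049, 5659, 4846 and 8339.6 normalized counts in the 5 sham rats. In the EP rats it measured 14759, 15726, 15591, 8237 and 9193. Only EP 4 and EP 5 lay within the sham range, and the log2 difference was 0.97 ± 0.21 (SE), adjusted p = 0.00159. Timp3, the inhibitor that binds to the matrix and also blocks ADAMTS enzymes, measured 1675, 6478, 3409, 2555 and 6482 in sham and 12056, 8334, 7329, 8209.6 and 6092 in EP. EP 5 was the single EP rat below the highest sham rats, and the log2 difference was 1.18 ± 0.28 (SE), adjusted p = 0.00249. Timp4 measured 457, 645, 625, 957 and 604 in sham and 2011, 901, 664, 916 and 999 in EP, with a log2 difference of 0.67 ± 0.35 (SE) that did not pass (adjusted p = 0.131), EP 1 being far above the rest. Timp1, the inducible inhibitor, measured 1993, 1325, 1872, 2899 and 1485 in sham and 1089, 1117, 1762, 2068 and 1152 in EP (log2 difference -0.41 ± 0.29 (SE), adjusted p = 0.265). Timp1, Timp3 and Timp4 each lie inside a synapsin gene (Syn1, Syn3 and Syn2) on the opposite strand, and the strand setting of the counting is not given in the sources used here. Syn1 averaged 469.7 normalized counts in sham and 26.6 in EP, Syn2 636 and 59.3, and Syn3 22.5 and 21.2, so for Timp1 and Timp4 reads of the partner cannot be told apart. Timp2 overlaps Cep295nl on the same strand, which averaged 15.4 in sham and 51.5 in EP.

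Of the MMPs, Mmp19 rose. This secreted protease of basement membrane and other matrix proteins measured 445, 598, 330.4, 349.6 and 508 in sham and 709, 565, 674, 613 and 559.8 in EP (log2 difference 0.51 ± 0.16 (SE), adjusted p = 0.0169). The EP values were close together, and the highest sham rat lay among them. Mmp13, the main interstitial collagenase of rodents, measured 1295, 197, 3349, 8017 and 1704 in sham and 236, 183, 247, 874 and 1011 in EP. Sham spanned a wide range, with Sham 2 as low as the EP rats, and the log2 difference of -2.05 ± 1.07 (SE) did not pass (adjusted p = 0.132, 95% interval -4.26 to 0.15). The neutrophil collagenase Mmp8 measured 255, 15.1, 118, 167 and 271 in sham and 108, 119, 158, 399.6 and 118 in EP (log2 difference 0.43, adjusted p = 0.686). Mmp1 and Mmp1b, the rodent counterparts of interstitial collagenase, had 14 and 11 reads in all 25 libraries together and were not tested.

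The gelatinases did not pass between EP and sham. Mmp2, which cleaves denatured collagen and basement membrane, measured 4768, 15009, 10681, 6956 and 13081 in sham and 22391, 11897, 13394, 14682 and 9231 in EP (log2 difference 0.56 ± 0.29 (SE), adjusted p = 0.126). Mmp9, the gelatinase of neutrophils and other inflammatory cells, measured 342, 196, 910, 463 and 355 in sham and 239.8, 128, 461, 435 and 345 in EP (log2 difference -0.45 ± 0.94 (SE), adjusted p = 0.732). For both genes the sham and EP ranges overlapped broadly. The stromelysin Mmp3, which degrades proteoglycans and activates other proenzymes, measured 2052, 539, 282, 1195 and 1584 in sham and 588, 129, 784, 394 and 626 in EP (log2 difference -1.06, adjusted p = 0.309). Its close relative Mmp10 measured 143, 48.0, 24.9, 16.3 and 113 in sham and 67.0, 23.2, 84.6, 67.3 and 65.3 in EP (log2 difference 0.16, adjusted p = 0.886). For Mmp11, known as stromelysin-3, the log2 difference was -0.32, adjusted p = 0.459, with sham at 269.9 ± 75.1 and EP at 220.5 ± 71.7 (SD, n = 5). Mmp12, the elastase of macrophages, averaged 715 ± 222 in sham and 743 ± 359 in EP (log2 difference -0.00, adjusted p = 0.997). The membrane-bound Mmp14, an activator of pro-MMP2, averaged 3324 ± 1877 and 3728 ± 848 (log2 difference 0.33, adjusted p = 0.408). The 95% intervals of these genes were wide, running from -2.39 to 1.49 for Mmp9 and from -2.74 to 0.61 for Mmp3, so that with 5 rats a group no difference was detectable and differences of these sizes remain possible.

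Among the proteoglycan-cleaving ADAMTS enzymes, Adamts1 and Adamts5 rose. Adamts5, a major aggrecanase, measured 194, 411, 274, 191 and 329 in sham and 673, 859.9, 481, 373 and 392 in EP (log2 difference 0.97 ± 0.28 (SE), adjusted p = 0.00988). EP 4 and EP 5 lay below the highest sham rat. Adamts1, which cleaves versican and aggrecan, averaged 1521 ± 516 in sham and 2509.6 ± 480.3 in EP (SD, n = 5; log2 difference 0.77, adjusted p = 0.0112). Adamts4, the other major aggrecanase, measured 216, 384, 142, 104 and 216 in sham and 73.8, 95.1, 121, 114 and 53.1 in EP, and its log2 difference of -1.13 ± 0.54 (SE) did not pass (adjusted p = 0.103). The procollagen N-proteinases, which trim the amino ends of fibrillar procollagens, went different ways. Adamts2 was higher in EP (log2 difference 0.66, adjusted p = 0.0466), Adamts14 was lower (-1.03, adjusted p = 0.0119) and Adamts3 did not pass (-0.39, adjusted p = 0.56). Adamts14 measured 430.3, 199, 842, 248 and 381 in sham and 222, 158, 156, 223 and 155 in EP. Sham 2 alone lay within the EP range.

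The COMP-cleaving enzymes Adamts12 and Adamts7 were both higher. Adamts12 measured 318, 969, 429, 307 and 682 in sham and 1556, 1313, 1036, 1341 and 874 in EP (log2 difference 1.30 ± 0.30 (SE), adjusted p = 0.00236), Sham 2 being the single sham rat that reached the EP range. Adamts7 averaged 265 ± 105 and 403 ± 109 (log2 difference 0.68, adjusted p = 0.0349), and Adamts6, a relative of the fibrillin-associated Adamts10, 73.7 ± 56.4 and 144 ± 47.5 (log2 difference 1.24, adjusted p = 0.0181). Adamts16 was low, at 0, 28.4, 0, 0 and 8.84 in sham and 37.9, 38.0, 22.5, 16.1 and 13.1 in EP (log2 difference 2.97 ± 0.94 (SE), adjusted p = 0.0165). It was at 0 in 3 sham rats, so that the fitted difference depends on the pseudocount and is no estimate of fold, and edgeR and DESeq2 did not call it. It entered the tests through Cur/ZNP gel 2 alone, the single library past the filter of CPM 2 (2.23, at 131 normalized counts), so its counts among the higher calls and its differences from Cur/ZNP gel rest on that library's passing. Adamts13, which cleaves von Willebrand factor, ranged from 53.3 to 1128 in sham and from 128 to 225 in EP and did not pass (adjusted p = 0.618).

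All 4 ADAMTS-like genes passed. Adamtsl2, a binding partner of fibrillin microfibrils, measured 436, 544, 591, 331 and 511 in sham and 337, 189, 179, 203 and 249.9 in EP (log2 difference -1.07 ± 0.22 (SE), adjusted p = 0.000978). EP 1 was the single EP rat above the lowest sham rat. Adamtsl4, also bound to fibrillin microfibrils, went the other way, with 2158, 3752, 3051, 1071 and 2641 in sham and 7446, 7727, 2514, 3481 and 4802 in EP (log2 difference 1.02, adjusted p = 0.0396). Adamtsl5 measured 290, 422, 321, 87.4 and 293 in sham and 1175, 1232, 333, 584 and 773 in EP (log2 difference 1.55, adjusted p = 0.0106). EP 3 was the single EP rat within the sham range for Adamtsl5. For Adamtsl3 the averages were 400.4 ± 209 and 769.7 ± 309 (log2 difference 1.02, adjusted p = 0.012).

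These calls depended in part on the fit. Of the 15, the calls of Adamts12 and Adamtsl2 held under every alternative run and with each library left out. Scaling to total reads kept 3 of the 15 (Adamts12, Adamts14 and Adamtsl2) and gave 1 higher and 2 lower calls among the members, with 39.7% of the calls over all genes higher against 49.9%. That scaling moved the median log2 difference of all genes from 0.01 to -0.12, and of the members from 0.43 to 0.30. Leaving out 1 library ended the call of Adamts16 (without Sham 1, adjusted p = 0.0513, or Sham 3, 0.0505) and Mmp19 (Sham 3, 0.0590). The call of Adamts6 was lost without 1 library (Sham 1, 0.0540, Sham 3, 0.0634, Sham 4, 0.0501, or EP 2, 0.0528), as was that of Adamts7 (Sham 1, 0.102, Sham 4, 0.113, EP 1, 0.10, EP 2, 0.0618, or EP 4, 0.0736). That of Adamtsl4 went with 1 library of 5 (Sham 1, 0.0751, Sham 4, 0.120, EP 1, 0.103, EP 2, 0.112, or EP 5, 0.0597) and that of Adamts2 with 1 of 7 (Sham 1, 0.175, Sham 3, 0.0648, Sham 4, 0.0860, EP 1, 0.130, EP 2, 0.0754, EP 3, 0.0574, or EP 4, 0.0803). Without Sham 4, EP 3 and EP 4, the libraries rich in nasal gland markers, 10 of the 15 calls held, those of Adamts1, Adamts2, Adamts7, Adamts16 and Mmp19 being lost. Leaving these libraries out does not remove the salivary gland content of the others.

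**Figure D2:**
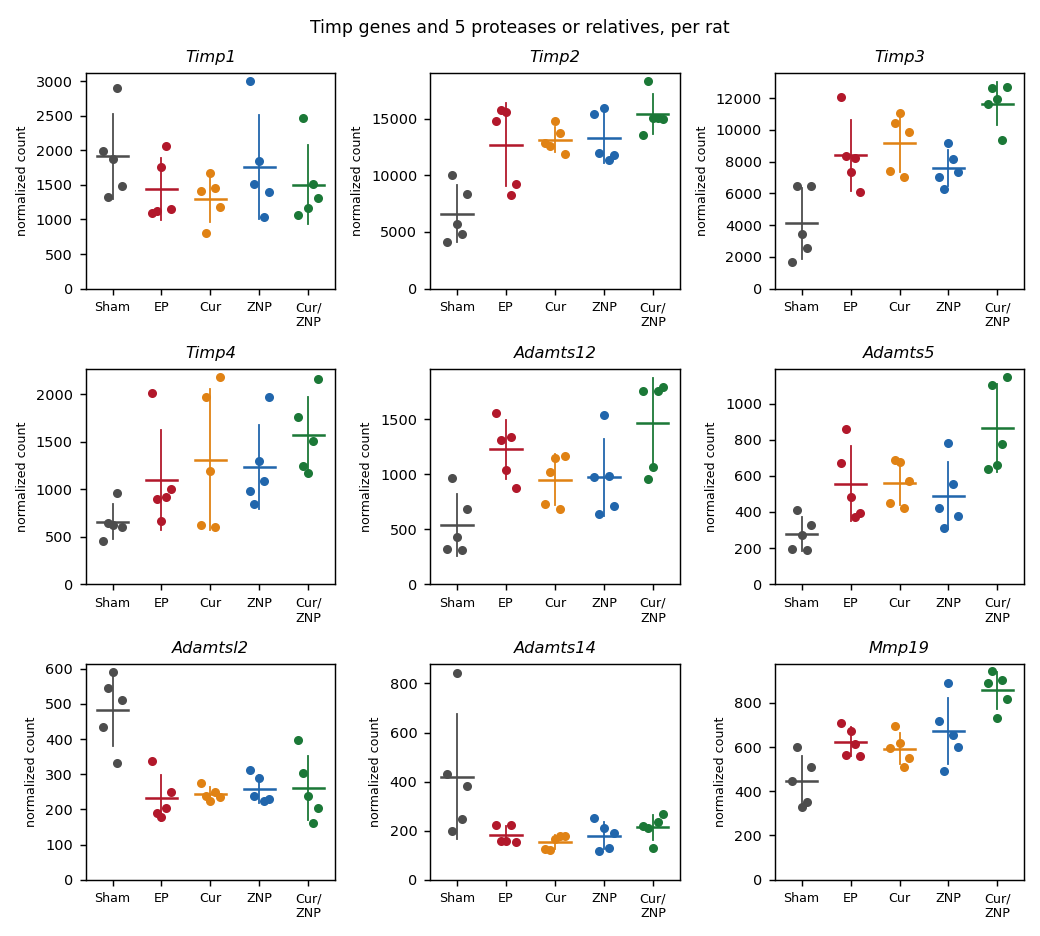
Normalized counts per rat (points) in the 5 groups for the 4 Timp genes and for Adamts12, Adamts5, Adamtsl2, Adamts14 and Mmp19, with the mean (horizontal line) and SD (vertical line, n = 5). Timp2 and Timp3 were higher and Adamtsl2 and Adamts14 lower in EP and in each gel group than in sham, while Timp1 passed in no comparison.

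The balance of proteases to inhibitors was described by dividing the summed normalized counts of all Mmp genes by those of all Timp genes within a library, which does not depend on the size factor. Since counts are not per length, the ratio is read only between groups, and it is given without a test. The ratio was 2.10, 1.64, 2.38, 2.32 and 1.74 in the sham rats and 1.20, 0.992, 1.14, 1.53 and 1.19 in the EP rats. Every sham rat lay above every other rat, since the ratio ranged from 0.988 to 1.46 for the combined gel, 0.893 to 1.35 for Cur gel and 1.22 to 1.29 for ZNP gel. The Timp sum averaged 13293 ± 4270 in sham and 23641 ± 5109 in EP (SD, n = 5), whereas the Mmp sum averaged 26127 ± 5214 and 28228 ± 5529. Without Mmp2 and Mmp13, the ratio was 0.813 to 1.36 in sham and 0.443 to 0.726 in EP. For the pair of Mmp14 with Timp3 it was 0.525 to 1.14 in sham and 0.355 to 0.578 in EP, with Sham 4 and EP 4 overlapping, and for Mmp9 with Timp1 it was 0.148 to 0.486 and 0.114 to 0.299. For Mmp2 with Timp2 it was 1.16 to 1.89 and 0.757 to 1.78, and for Mmp14 with Timp2 0.277 to 0.590 and 0.219 to 0.576. For Adamts1 with Timp3 it was 0.272 to 0.655 and 0.204 to 0.397. Sham and EP overlapped in every one of these pairs, so that the groups were apart in the summed ratios only.

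**Figure D3:**
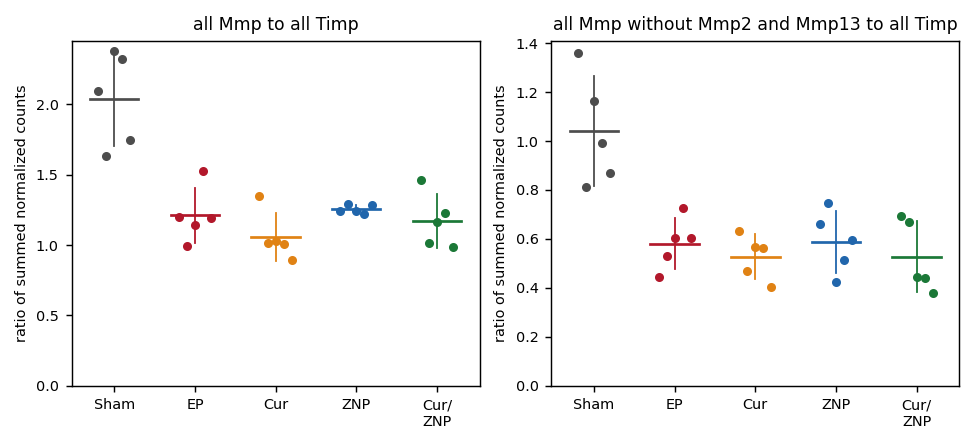
Ratio of summed normalized counts of Mmp genes to Timp genes per rat (points) in the 5 groups, with the mean and SD (lines, n = 5), for all Mmp genes (left) and without Mmp2 and Mmp13 (right). In the left panel the sham rats lie at 1.64 to 2.38 and the EP rats at 0.992 to 1.53.

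The gel groups were compared with the same sham rats, and since these comparisons share their controls they are given side by side. The combined gel had the most calls, with 20 members higher and 3 lower (53.5% called, all genes 39.7%). Cur gel gave 11 higher and 5 lower (37.2%, all genes 38%), and ZNP gel gave 11 and 4 (34.9%, all genes 32.1%). Higher calls alone were 46.5% of the members in Cur/ZNP gel (all genes 20.2%), and 25.6% in either single gel (all genes 18.9% for Cur gel and 16.7% for ZNP gel). Members whose rats all lay above all sham rats numbered 11 in Cur/ZNP gel (9.49% of all genes), 5 in Cur gel (8.84%) and 3 in ZNP gel (7.03%), and those wholly below numbered 0 (9.26%), 2 (8.84%) and 1 (6.79%). The median log2 difference over the members was 0.97 for the combined gel, 0.42 for Cur gel and 0.60 for ZNP gel, whereas those over all genes were -0.06, -0.03 and -0.01. Scaled to total reads, the counts of members higher and lower were 19 and 1 in Cur/ZNP gel, 9 and 2 in Cur gel and 7 and 0 in ZNP gel. The share of higher calls over all genes then moved from 50.9% to 80.1%, from 49.8% to 77.2% and from 52.0% to 83.8%, with medians of all genes at 0.15, 0.16 and 0.20.

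**Figure D4:**
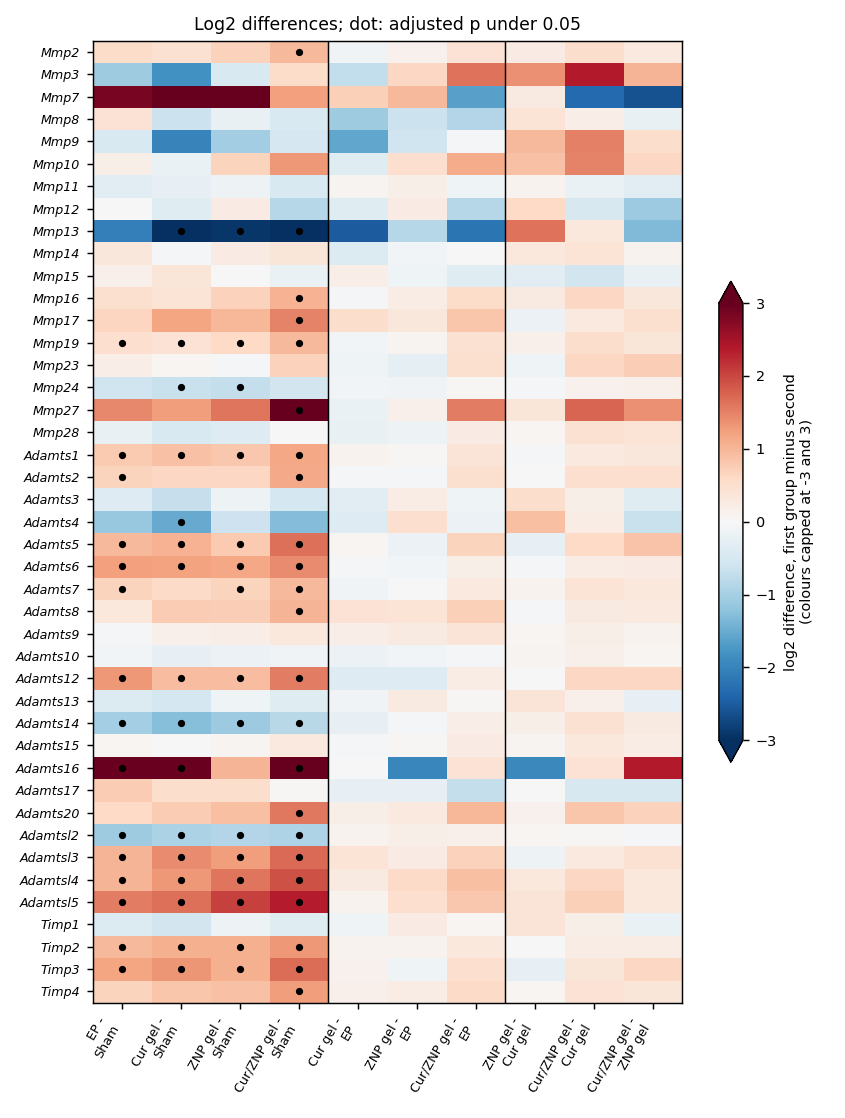
Log2 differences of the 43 members (rows) in the 10 comparisons (columns, first group minus second), with colours capped at -3 and 3 and a dot where the adjusted p from limma was under 0.05. Dots stand only in the 4 comparisons with sham, 23 for Cur/ZNP gel, 16 for Cur gel, 15 for ZNP gel and 15 for EP.

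Called in all 4 comparisons with sham were 12 members, namely Timp2, Timp3, Adamts1, Adamts5, Adamts6, Adamts12, Adamtsl3, Adamtsl4, Adamtsl5 and Mmp19, which were higher, and Adamts14 and Adamtsl2, which were lower. Timp3 measured 11642, 12615, 11942, 9346 and 12675 in the combined gel, where all rats lay above all sham rats, 7439.6, 10406, 11041, 7016 and 9874 in Cur gel and 7010.1, 6283, 9191, 8169.7 and 7337 in ZNP gel (Cur/ZNP gel against sham, log2 difference 1.68 ± 0.28 (SE), adjusted p = 0.000184). Timp2 in Cur/ZNP gel measured 13522, 18288, 15084, 15082 and 14934, also wholly above sham (log2 difference 1.30 ± 0.21 (SE), adjusted p = 0.000184). Mmp19 measured 889.7, 944, 730.5, 904 and 815 in Cur/ZNP gel, wholly above sham and above EP (log2 difference from sham 0.97 ± 0.16 (SE), adjusted p = 0.000211). Adamts5 measured 638, 1103, 663, 777 and 1146 in Cur/ZNP gel, again wholly above sham (log2 difference 1.64, adjusted p = 0.000246). The log2 difference of Adamtsl5 from sham was 2.37 in Cur/ZNP gel, 1.66 in Cur gel and 2.04 in ZNP gel, and that of Adamtsl2 was -0.93, -0.95 and -0.89. Scaled to total reads, Adamtsl2 lost its calls in the gel groups (adjusted p = 0.164, 0.137 and 0.211), though not in EP. That scaling also ended the calls of Adamts6, Adamts12 and Mmp19 in Cur gel and of Adamts14 in Cur/ZNP gel. For ZNP gel it ended those of Adamts5, Adamts6, Adamts12, Adamts14 and Mmp19. In EP it kept, of the 12, only Adamts12, Adamts14 and Adamtsl2, so none of the 12 held in all 4 comparisons under it. In Cur gel, leaving out 1 library ended the call of Adamts12 (Sham 1, 0.0671, Sham 4, 0.0595, or Cur gel 5, 0.0501), of Adamts6 (Sham 1, 3 or 4 or Cur gel 2 or 5, 0.0530 to 0.0724) and of Mmp19 (Sham 1, 3 or 4 or Cur gel 1, 2 or 3, 0.0579 to 0.115). In ZNP gel it ended that of Adamts12 (Sham 1, 3 or 4 or ZNP gel 3, 0.0552 to 0.0753), of Adamts5 (Sham 1, 3 or 4 or ZNP gel 3 or 4, 0.0606 to 0.102) and of Adamts6 (Sham 1, 3 or 4 or ZNP gel 1 or 4, 0.0566 to 0.0954). In Cur/ZNP gel it ended that of Adamts14 (Sham 1, 3 or 5 or Cur/ZNP gel 1, 2 or 3, 0.0514 to 0.128). Called in Cur/ZNP gel but in no other comparison with sham were 7 members, Mmp2 (0.98, adjusted p = 0.00973), Mmp16 (1.04, adjusted p = 0.0172), Mmp17 (1.48, adjusted p = 0.0245), Mmp27 (2.99, adjusted p = 0.00824), Timp4 (1.26, adjusted p = 0.00724), Adamts8 (1.03, adjusted p = 0.0396) and Adamts20 (1.59, adjusted p = 0.0241). None of these 7 passed between Cur/ZNP gel and EP or a single gel, so they are not shown to differ between the gels.

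In Cur/ZNP gel the summed fibroblast markers were also higher, at 298418 to 558234 normalized counts against 126559 to 324446 in sham. Of these markers, 6 of 7 tested were called higher (2 of 7 in EP and 3 of 7 in either single gel), and none was at 0 in any group. In the same comparison skeletal muscle markers were higher (5 of 6, sums of 323737 to 2512040), as were mast cell markers (4 of 6, 3253 to 7049 against 960 to 3193 in sham), and autonomic neuron markers were lower (7 of 9, 356 to 43226). Mast cell markers were also higher in Cur gel (5 of 6) and ZNP gel (4 of 6), skeletal muscle markers in ZNP gel (3 of 6, with 0 of 6 in Cur gel), and autonomic neuron markers were lower in both (8 of 9 each). Of all genes, 20.2% were called higher and 19.5% lower in Cur/ZNP gel, 18.9% and 19.1% in Cur gel and 16.7% and 15.4% in ZNP gel. The part of these tissues in the results on Mmp2, Timp3 and the other genes was not tested. Of the 7 genes, the call of Adamts8 was lost without any 1 of 8 libraries (Sham 1, 2, 3 and 4 and Cur/ZNP gel 1, 2, 4 and 5, adjusted p = 0.0540 to 0.0911). The call of Adamts20 was lost without Sham 3 (0.0540), Sham 4 (0.0685), Cur/ZNP gel 2 (0.0711) or Cur/ZNP gel 5 (0.0727). So was that of Mmp17 without Sham 1 (0.0598), Sham 4 (0.0740) or Cur/ZNP gel 5 (0.0566), and that of Mmp16 without Sham 1 (0.0663).

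Mmp13 was lower than in sham in every gel group. It measured 121, 245, 52.7, 153 and 18.8 in Cur/ZNP gel, 115, 5.23, 487, 55.2 and 85.0 in Cur gel and 178, 1574, 267, 98.4 and 65.0 in ZNP gel, against 1295, 197, 3349, 8017 and 1704 in sham. Sham 2 lay within the range of each gel group, and Sham 1 within that of ZNP gel. The log2 difference was -4.24 ± 1.07 (SE) for the combined gel (adjusted p = 0.00383), -4.54 ± 1.07 (SE) for Cur gel (adjusted p = 0.00244) and -2.91 ± 1.07 (SE) for ZNP gel (adjusted p = 0.0411). The calls in Cur gel and Cur/ZNP gel held with each library left out. That in ZNP gel was lost without Sham 1 (0.0635), Sham 3 (0.0947), Sham 4 (0.110), Sham 5 (0.0563), ZNP gel 1 (0.0715), ZNP gel 3 (0.0535), ZNP gel 4 (0.0941) or ZNP gel 5 (0.106). Mmp13 is also a gene of osteoblasts and hypertrophic cartilage. The summed osteoblast markers were 2247 to 21838 in sham, 1442 to 4596 with the combined gel, 2039 to 4558 with Cur gel, 2396 to 10218 with ZNP gel and 3436 to 8315 in EP. Of 6 osteoblast markers, 3 were called lower and 1 higher in the combined gel, 2 and 1 in Cur gel and 0 and 1 in ZNP gel. The shares of all genes were 19.5% lower and 20.2% higher, 19.1% and 18.9%, and 15.4% and 16.7%. No osteoblast marker was at 0, and their part in the Mmp13 result was not tested. Cartilage markers summed to 1392 to 7499 in sham, 667 to 5470 in EP and 268 to 2229 with Cur gel. With ZNP gel the sums were 368 to 4009 and with the combined gel 563 to 8658. None of the 5 tested cartilage markers was called against sham, and their part was not tested. Markers of ameloblasts and junctional epithelium summed to 4519 to 18391 in sham, 28.7 to 16347 in EP, 0 to 5113 with ZNP gel, 8.38 to 1186 with Cur gel and 39.7 to 3120 with the combined gel. Klk4, one of the 6, was at 0 in all of these groups but Cur gel, and the single tested gene of the list (Odam) was called lower in Cur gel (log2 difference -8.50) and in no other group. Their part in the Mmp13 result was not tested either. Mmp24, a membrane-type MMP, was lower in Cur gel (-0.67, adjusted p = 0.0464) and ZNP gel (-0.70, adjusted p = 0.0428), and Adamts4 in Cur gel (-1.52, adjusted p = 0.0307). Adamts4 lost its call without Sham 1 (0.0612), Sham 2 (0.0726), Cur gel 2 (0.101) or Cur gel 5 (0.0519). Mmp24 lost its calls without any 1 of 6 libraries in Cur gel (Sham 1, 3 and 4 and Cur gel 1, 3 and 4) and any 1 of 7 in ZNP gel (Sham 1, 3 and 4 and ZNP gel 1, 2, 3 and 4), with adjusted p up to 0.140.

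No member passed between a gel group and EP or between 2 gel groups. Limma called 0 of 43 members in each of these 6 comparisons, beside 0.00621% of all genes (1 gene) between ZNP gel and EP and 0% in the others, and edgeR called 0 members and 0 genes. DESeq2 also called 0 members, but over all genes it called 79 (0.491%) for Cur gel, 61 (0.379%) for ZNP gel and 202 (1.26%) for Cur/ZNP gel against EP, and 6, 22 and 7 between the gels (Cur/ZNP gel minus Cur gel, Cur/ZNP gel minus ZNP gel and ZNP gel minus Cur gel). An unadjusted p under 0.05 was met by 4 members for the combined gel against EP (9.3%, all genes 12.8%), 4 against Cur gel (9.3%, all genes 11.1%) and 5 against ZNP gel (11.6%, all genes 5.08%). It was met by 1 member for Cur gel against EP (Mmp13, 2.33%, all genes 1.76%), 1 for ZNP gel against EP (Adamts16, all genes 2.99%) and 1 for ZNP gel against Cur gel (Adamts16, all genes 1.14%). None of these members passed adjustment. The median width of the 95% intervals to either side of the log2 difference was 0.69, so these comparisons left room for differences of that size.

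The smallest unadjusted p between Cur/ZNP gel and EP belonged to Mmp19 (log2 difference 0.46 ± 0.16 (SE), adjusted p = 0.295), whose 5 Cur/ZNP rats lay above all EP rats, beside 1.27% of all genes. No member of Cur/ZNP gel lay wholly below EP (0.833% of all genes). Adamts5 (0.67, adjusted p = 0.329) and Adamtsl4 (0.89, adjusted p = 0.338) followed. Against Cur gel, Cur/ZNP gel gave 0.53, adjusted p = 0.294 for Mmp19, 2.37, adjusted p = 0.298 for Mmp3 and 0.61, adjusted p = 0.428 for Adamts5. Against ZNP gel it gave 0.85, adjusted p = 0.899 for Adamts5, 0.75, adjusted p = 0.899 for Mmp23 and 2.38, adjusted p = 0.899 for Adamts16. Between Cur gel and EP the smallest p values were those of Mmp13 (-2.49, adjusted p = 1), Mmp9 (-1.56, adjusted p = 1) and Mmp8 (-1.08, adjusted p = 1). Between ZNP gel and EP they were those of Adamts16 (-1.95, adjusted p = 1), Adamtsl4 (0.59, adjusted p = 1) and Adamts12 (-0.38, adjusted p = 1). For ZNP gel minus Cur gel the smallest were those of Adamts16 (-1.94, adjusted p = 1), Mmp3 (1.36, adjusted p = 1) and Adamts4 (0.90, adjusted p = 1). Members wholly above Cur gel in Cur/ZNP gel were Mmp19 and Mmp23 (1.5% of all genes) and none lay wholly below (1.06%), and Timp3 was wholly above ZNP gel (0.429%) with none below (0.541%). Cur gel minus EP (0.168% of all genes wholly above and 0.168% wholly below), ZNP gel minus EP (0.267% and 0.292%) and ZNP gel minus Cur gel (0.286% and 0.162%) had 0 such members. For the inhibitors, the 95% interval of Cur/ZNP gel minus EP was -0.12 to 0.76 for Timp2 and -0.07 to 1.07 for Timp3 on the log2 scale, and that of Cur gel minus EP was -0.43 to 0.71 for Timp3.

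Within the chromosome 8 cluster, Mmp3 and Mmp10 ranged widely between rats of a group. Mmp3 measured 2427, 363, 1658, 1883 and 1501 in Cur/ZNP gel, 42.6, 1338, 518, 57.9 and 628 in Cur gel and 311, 696, 631, 762 and 1198 in ZNP gel. In the same order, Mmp10 measured 253, 18.0, 195, 205 and 161, 28.9, 154, 69.9, 6.23 and 74.8 and 28.4, 94.3, 76.5, 100.2 and 167. The rats lowest in Mmp3 within EP (EP 2), Cur gel (Cur gel 1 and 4), ZNP gel (ZNP gel 1) and Cur/ZNP gel (Cur/ZNP gel 2) were the lowest in Mmp10 too. In sham they differed, with Sham 3 lowest in Mmp3 (282) and Sham 4 in Mmp10 (16.3). The deviations of log2 values from the group means over the 25 rats gave Pearson's r = 0.831 and Spearman's rho = 0.852 for this pair (permutation p = 1e-05 for both, the smallest that 100000 permutations can give, adjusted over 21 pairs 0.00021). Without Cur gel 1 and Cur gel 4, r was 0.850. These paralogs are close in sequence, and how reads that fit both were counted is not given in the sources used here, so shared reads cannot be told apart from shared expression. Mmp27, a less studied relative, measured 16.9, 22.2, 18.4, 28.5 and 6.88 in sham and 108, 66.6, 21.1, 14.6 and 108 in EP (log2 difference 1.44, adjusted p = 0.183). In Cur/ZNP gel it measured 258, 26.0, 137, 389 and 154, where only Cur/ZNP gel 2 came within the sham range, no sham library passing the filter on low counts (log2 difference 2.99 ± 0.84 (SE), adjusted p = 0.00824). Mmp27 varied with Mmp3 (r = 0.649, rho = 0.608, permutation p = 0.00051 and 0.00163, adjusted 0.00357 and 0.0114, r = 0.523 without Cur gel 1 and Cur gel 4). For Mmp13 the deviations gave r = -0.155 with Mmp3 (rho = -0.12, permutation p = 0.457 and 0.568) and r = -0.275 with Mmp10 (rho = -0.305, permutation p = 0.183 and 0.139), which did not pass.

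**Figure D5:**
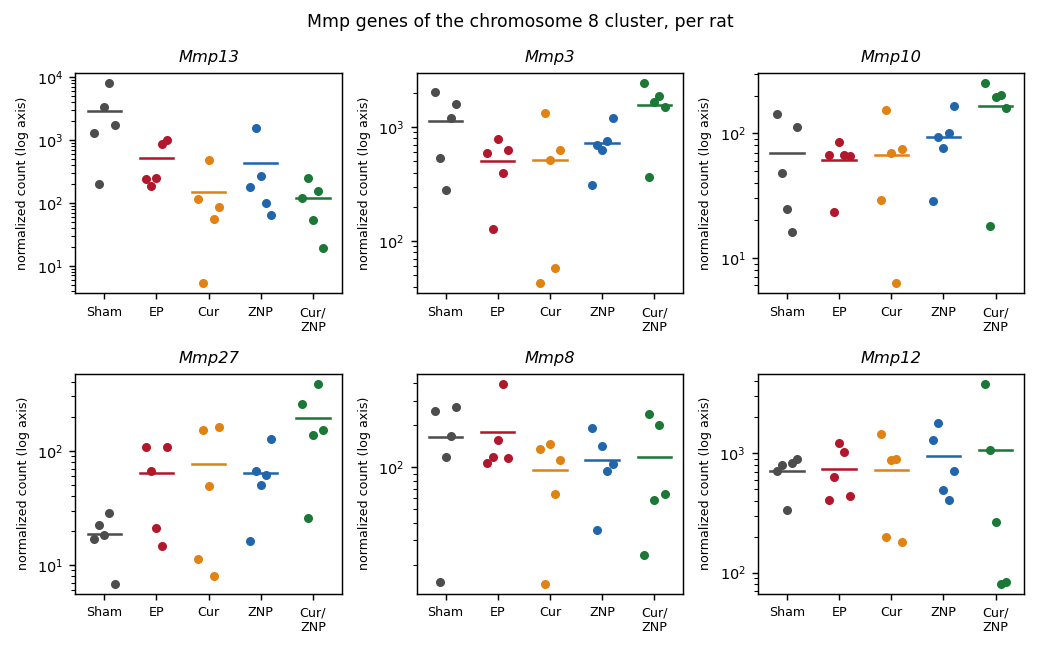
Normalized counts per rat (points, log axis) with group means (lines) for 6 Mmp genes of the chromosome 8 cluster in the 5 groups. Mmp13 is highest in sham, Mmp27 reaches 389 in Cur/ZNP gel against at most 28.5 in sham, and Cur/ZNP gel 2 is the lowest of its group in Mmp3 (363) and Mmp10 (18.0).

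Of the genes that act with these enzymes, 6 of 18 tested activators and inhibitors of matrix proteases were higher and 3 lower in EP than in sham, with a median log2 difference of 0.34. That is 33.3% higher and 16.7% lower, beside 18.8% and 18.8% of all genes. Spock2, a proteoglycan of the testican family, rose by 1.55 (adjusted p = 0.00327) on the log2 scale and the proprotein convertase Pcsk6 by 1.19 (adjusted p = 0.00795). Plat, the tissue plasminogen activator, changed by -0.79 (adjusted p = 0.00384) and the convertase Pcsk5 by -0.80 (adjusted p = 0.00964). Of 22 other secreted and membrane proteases, 5 were higher and 2 lower (median 0.41), which is 22.7% and 9.09%. Among them were the ADAM proteases Adam9 with 1.21 (adjusted p = 0.00031) and Adam12 with 2.24 (adjusted p = 0.00158), the procollagen C-proteinase relative Tll1 with 1.52 (adjusted p = 0.00166) and the serine protease Htra1 with -0.76 (adjusted p = 0.00258). Of 25 matrix substrates, 5 were higher and 2 lower (median -0.00), which is 20% and 8%, the higher share near that of all genes. The log2 difference was 1.29 (adjusted p = 0.00467) for Vwf, the substrate of Adamts13, 0.94 (adjusted p = 0.00988) for fibronectin (Fn1), 2.33 (adjusted p = 0.0187) for thrombospondin (Thbs1) and -1.50 (adjusted p = 0.0026) for the epithelial laminin chain Lamb3. In Cur/ZNP gel against sham the counts over these lists were 6 higher and 0 lower (33.3% and 0%), 8 and 0 (36.4% and 0%), and 8 and 2 (32% and 8%), beside 20.2% higher and 19.5% lower over all genes.

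The members not tested were too low for the filter on low counts, and reads over all 25 libraries numbered 447 for Adamts19, 324 for Adamts18, 39 for Mmp21, 36 for Mmp20 and 14 and 11 for Mmp1 and Mmp1b. Mmp20, the protease of enamel formation, was above 0 in 6 libraries at most at 9.25 normalized counts. The other members outside the calls with sham, such as Mmp15, Mmp23, Mmp28, Adamts9, Adamts10 and Adamts15, had log2 differences between EP and sham of 0.16, 0.19, -0.23, -0.06, -0.08 and 0.05. Over all comparisons with sham, 18 of the 43 members passed in none and 25 in at least 1.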

How the data were processed

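Gingiva of 25 rats was sequenced as total RNA depleted of ribosomal RNA (TRIzol, stranded kit, 1 library per rat). The deposited values are a signal per Ensembl transcript: the authors divided whole reads by a DESeq2 size factor per library, on Rnor_6.0 per the labels. Aligner, counter and strand setting are not given in the sources used here. Whole reads were recovered for 100% of values (tolerance 0.01), 50690789 to 81791804 per library. The 41078 transcripts were summed to 30547 genes.

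The 16092 genes that reached a CPM of 2 in some library entered limma 3.58.1 (robust trend, R 4.3.3), as log2 of the normalized count plus 1, in one fit of all 25 libraries, with Benjamini-Hochberg adjustment over all genes, two-sided, threshold 0.05. Fold changes of low genes on this scale depend on the pseudocount. Alternatives were TMM factors, total reads, no filter, filterByExpr, pseudocounts of 0.5 and 10, a replicate block, each comparison's 2 groups alone, no libraries rich in nasal gland markers (Sham 4, EP 3 and EP 4), each library left out, edgeR 4.0.16 and DESeq2 1.42.0 on recovered reads. The fit was also run on simulated counts, drawn for each gene apart and without tissue differences between rats, and that outcome is not used here. Correlations used 100000 permutations.

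Members and lists were chosen with earlier results of these data known. Named with values were members called between EP and sham or between groups other than sham, all Timp genes, the classical collagenases, gelatinases and stromelysins with Mmp12 and Mmp14, the 3 members of smallest p in each comparison without sham, and up to 4 genes per pathway list. Members named for calls in a gel group against sham, and the low or uncalled ones listed at the end, were chosen after their values were seen. Levels were not compared between genes, since the files give genomic spans and no transcript lengths. Of the lists of markers, neutrophil (2 of 8 tested higher), macrophage (2 of 7), mast cell (3 of 6), endothelium (1 of 6), fibroblast (2 of 7), osteoblast (1 of 6) and skeletal muscle (5 of 6) had calls higher in EP than in sham, beside 18.8% of all genes. Keratinocyte (1 of 8) and autonomic neuron (8 of 9) had calls lower, beside 18.8% of all genes, and nasal gland, salivary gland, osteoclast, cartilage and ameloblast markers had 0 calls. The osteoblast list had a median log2 difference of -0.98, against the direction of its 1 call. Counts of 1 or 2 in lists this short are not read as a change of the cell type. Sequences came from RefSeq promoters of GRCr8, and coordinates of the 2 builds were not mixed.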

Additional observations from a re-analysis of the deposited data

Results flagged for a closer look

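In 10 of the 215 sets of 5 rats (43 genes in 5 groups), 1 rat lay far from the other rats of its group by Dixon's test. Chance alone gives about 1 in 20, and the number flagged was near that share. The values are therefore listed as a description and not as results. Adamts3 in Sham 4 measured 52.8 normalized counts and Adamtsl5 in Sham 4 87.4, both below the rest of sham, and Sham 4 is one of the libraries rich in nasal gland markers. Mmp12 in Sham 3 measured 336, below the other sham rats. Mmp10 was low in EP 2 at 23.2 and in Cur/ZNP gel 2 at 18.0, and Cur/ZNP gel 2 was also low for Mmp3 at 363 and for Mmp2 at 11594. Timp3 in Cur/ZNP gel 4 was 9346, below its group. On the high side, Adamts8 in ZNP gel 5 measured 777 and Mmp11 in Cur gel 1 measured 441. Whether any of these values has a cause other than chance was not tested.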

How the results depend on the processing

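Of 420 counts of members called, 393 stayed within 1.5 times under the alternatives and 27 moved. All 27 were counts against sham. The counts without sham were 0 in every fit and are among the 393, so the pooled share overstates how stable the counts against sham were. Between EP and sham, 13 higher calls became 1 with total reads, 5 with the 2 groups alone, 8 without Sham 4, EP 3 and EP 4 and 8 to 15 with 1 library left out, and 2 lower calls became 1 with the 2 groups alone, 4 with DESeq2 and 2 to 4 with 1 library left out. Between Cur gel and sham, 11 higher calls became 7 with the 2 groups alone and 7 to 15 with 1 library left out, and 5 lower calls became 2 with total reads and 3 to 5 with 1 library left out. Between ZNP gel and sham, 11 higher calls became 7 with total reads, 3 with the 2 groups alone and 7 to 15 with 1 library left out, and 4 lower calls became 0 with total reads, 2 with no filter, 2 with the replicate block, 1 with the 2 groups alone, 2 without Sham 4, EP 3 and EP 4 and 2 to 4 with 1 library left out. Between Cur/ZNP gel and sham, 20 higher calls became 13 with the 2 groups alone and 17 to 20 with 1 library left out, and 3 lower calls became 1 with total reads and 2 to 4 with 1 library left out. The 2 groups alone hold fewer samples, and otherwise the cause was not tested. Of 2037 values of named members, 1801 kept their side of the threshold, 227 lost and 9 gained a call, and no called value changed sign. Comparisons without sham gave 0 calls among the members under every alternative.

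No source used here says that the replicate numbers pair the rats. Of 50 same-numbered pairs, 17 had deviations correlated over 0.1 (median r = -0.0073, range -0.392 to 0.506, other pairs -0.0256). Of 25 libraries, 5 correlated best with their own number. These values cannot show that no pairing or shared batch was present. With the replicate block, members higher and lower than sham were 12 and 2 in EP, 10 and 4 in Cur gel, 11 and 2 in ZNP gel and 20 and 3 in Cur/ZNP gel.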

Other observations

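Other members of the chromosome 8 cluster varied against Mmp27 between rats. Over the 25 rats, deviations from the group means of Mmp7, the matrilysin of glandular epithelium, and Mmp27 gave r = -0.666 and rho = -0.558 (permutation p = 0.0003 and 0.00447, adjusted over 21 pairs 0.00315 and 0.0214), and r was -0.560 without Cur gel 4 and Cur/ZNP gel 2. Mmp12 and Mmp27 gave r = -0.504 and rho = -0.552 (permutation p = 0.0104 and 0.00509, adjusted 0.0338 and 0.0214), and r was -0.690 without Cur/ZNP gel 1 and 4. Mmp12 and Mmp7 varied together, with r = 0.532 and rho = 0.675 (permutation p = 0.0063 and 0.00036, adjusted 0.0265 and 0.00378), and r was 0.676 without Cur/ZNP gel 1 and 4. Mmp13 and Mmp8 gave r = 0.499 (permutation p = 0.0113, adjusted 0.0338) and rho = 0.452 (permutation p = 0.0239, adjusted 0.075), which fell to r = 0.159 without Sham 2 and Cur gel 2, so that it rests on these rats. The rat Cur/ZNP gel 1 had the highest Mmp9 (3715 normalized counts) and Mmp12 (3816) of its group, and its Mmp9 to Timp1 ratio was 3.51.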
